A study of Mus musculus with 8 samples.

Results

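Interferon-stimulated genes are the genes that a cell switches on when it senses an interferon. A list of 37 genes under this name was followed here in mouse hepatocytes with and without transglutaminase 2. Whether interferon induces each of them in these cells was not tested. The list was given by symbol: transcription factors of the interferon system, sensors of foreign nucleic acid, antiviral effectors, interferon-inducible GTPases, enzymes that attach or remove ubiquitin-like tags or ADP-ribose, and a few members of other function. A probe set stood for a gene where the platform annotation gave it that symbol and no other, and the probe set with the highest mean over the arrays was used. Of the 37 genes, 35 had such a probe set, out of 18193 genes on the array. Isg15 shares its probe set with other symbols and no probe set was matched to Ifi44, so neither is described. All 35 passed the filter on dim probe sets, which kept 10741 genes.

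Type I interferons bind a receptor whose kinases start a signal to the nucleus, where a complex that contains IRF9 binds the interferon-stimulated response element (ISRE) in promoters. Type II interferon acts through the gamma-activated site (GAS) and through IRF1. Hepatocytes respond to both, and the induced proteins detect viral RNA, block its translation, degrade it or mark pathogen-containing vacuoles.

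Primary hepatocytes were taken from wild-type mice (WT) and from mice lacking transglutaminase 2 (KO, named TG2KO in the labels), all of a C57BL6/129SVJ background, and were kept for 15 h with 0 or 100 mM ethanol. The study concerns this protein-crosslinking enzyme, encoded by Tgm2, in liver injury. Each of the 4 groups (untreated WT, ethanol WT, untreated KO, ethanol KO) was measured on 2 arrays, A and B, which are 1-colour Affymetrix arrays of biotin-labelled cRNA. The labels do not state the animals' ages, whether WT and KO mice were littermates, or whether arrays A and B of a group are separate mice or cultures. The p-values therefore measure only how far A and B lie apart, and this spread may be technical.

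Levels are quantile-normalised intensities, with no unit, and they are compared within a probe set only. Differences are given on the log2(intensity + 16) scale with the standard error (SE) of the fit, n = 2 arrays per group. A gene rose, fell or was called where limma's p, adjusted over all tested probe sets, was under 0.05. Tgm2 lay between 16656 and 16836 on the 4 WT arrays, at 378 and 368 in untreated KO and at 704 and 628 in ethanol KO. Before normalisation, both untreated KO arrays and ethanol KO A were dim, with trimmed mean intensities of 98.5 to 103 compared with 199 to 297 for the remaining 5. Spike-in controls (bioC over bioB) split the arrays into ratios of 0.937 to 1.06 (untreated WT A, ethanol WT A, ethanol KO A) and 2.59 to 3.14 (the other 5). The 3′ to 5′ signal ratio of Pcx, a measure of RNA integrity, was 10.0 and 16.8 in untreated WT, 10.6 and 8.69 in untreated KO, 26.7 and 44.5 in WT with ethanol, and 4.91 and 5.45 in KO with ethanol. The treatment text of both B ethanol arrays describes an untreated incubation, while their titles and source names give 100 mM. The titles were followed, and the number of members called in each of the 5 comparisons is also given without these arrays and with them counted as untreated.

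The ISRE is visible in the promoters of several members. The core GAAANNGAAA, searched on both strands with its reverse complement TTTCNNTTTC and overlapping matches counted, was looked for from 250 bases before to 50 bases after the RefSeq start of each gene (GRCm38.p6). It occurred in 3.99% of 27025 genes with a window and in 14 of the 25 members that matched one (56%). The GAS letters TTCNNNGAA occurred in 9.55% of all genes and in 9 of the 25 members (36%). Among the 17 members with a window that were higher in untreated KO than in untreated WT, 10 held the ISRE core, and among the 8 other members 4 did. The GAS letters were held by 5 of these 17 and by 4 of the 8 others. A match is only a run of letters, and its use in these cells was not measured. Below are the 160 bases before the start of 4 members that were higher in KO cells and of Bst2, which holds the core but was not called in any comparison, each read 5′ to 3′ on the gene's own strand with the core in capitals.
Ifit3, chr19:34583369-34583528, + strand: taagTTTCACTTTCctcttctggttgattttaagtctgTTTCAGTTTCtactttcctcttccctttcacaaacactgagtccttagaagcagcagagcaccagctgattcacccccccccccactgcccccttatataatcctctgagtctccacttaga
Ifit1, chr19:34640729-34640888, + strand: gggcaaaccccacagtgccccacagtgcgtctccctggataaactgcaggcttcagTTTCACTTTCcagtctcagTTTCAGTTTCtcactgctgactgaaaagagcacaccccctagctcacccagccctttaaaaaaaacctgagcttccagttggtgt
Rsad2, chr12:26456453-26456612, - strand: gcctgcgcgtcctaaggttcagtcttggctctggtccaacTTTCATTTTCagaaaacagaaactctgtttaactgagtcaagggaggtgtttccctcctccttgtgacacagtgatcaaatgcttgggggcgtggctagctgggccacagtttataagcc
Gbp2, chr3:142620503-142620662, + strand: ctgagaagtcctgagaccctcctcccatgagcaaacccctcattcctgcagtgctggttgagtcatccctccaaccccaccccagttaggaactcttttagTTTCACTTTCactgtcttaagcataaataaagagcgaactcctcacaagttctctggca
Bst2, chr8:71537473-71537632, - strand: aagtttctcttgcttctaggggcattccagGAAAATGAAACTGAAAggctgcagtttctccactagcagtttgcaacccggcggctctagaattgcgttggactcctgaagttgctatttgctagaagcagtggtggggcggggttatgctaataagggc
Ifit3 and Ifit1, which lie near each other on chromosome 19, each carry 2 separate cores. Rsad2 and Gbp2 carry 1, and in Bst2 2 cores overlap in 1 run.

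Without ethanol, most of these genes were brighter in KO than in WT hepatocytes. Of the 35 members, 22 rose (62.9%) and 4 fell (11.4%), where 15.1% of all tested genes rose and 21.0% fell. The median member difference was 0.53 on the log2 scale against -0.089 over all genes, and 29 members had a positive difference. Called rises of at least 2-fold were found for 7 members: Gbp2, Ifit3, Ifit2, Mx2, Iigp1, Irf1 and Rsad2. How many of all tested genes rose this far was not counted. The summed normalised intensity of the 35 members was 51862 and 51982 on the untreated WT arrays and 69978 and 70236 on the untreated KO arrays.

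**Figure D1:**
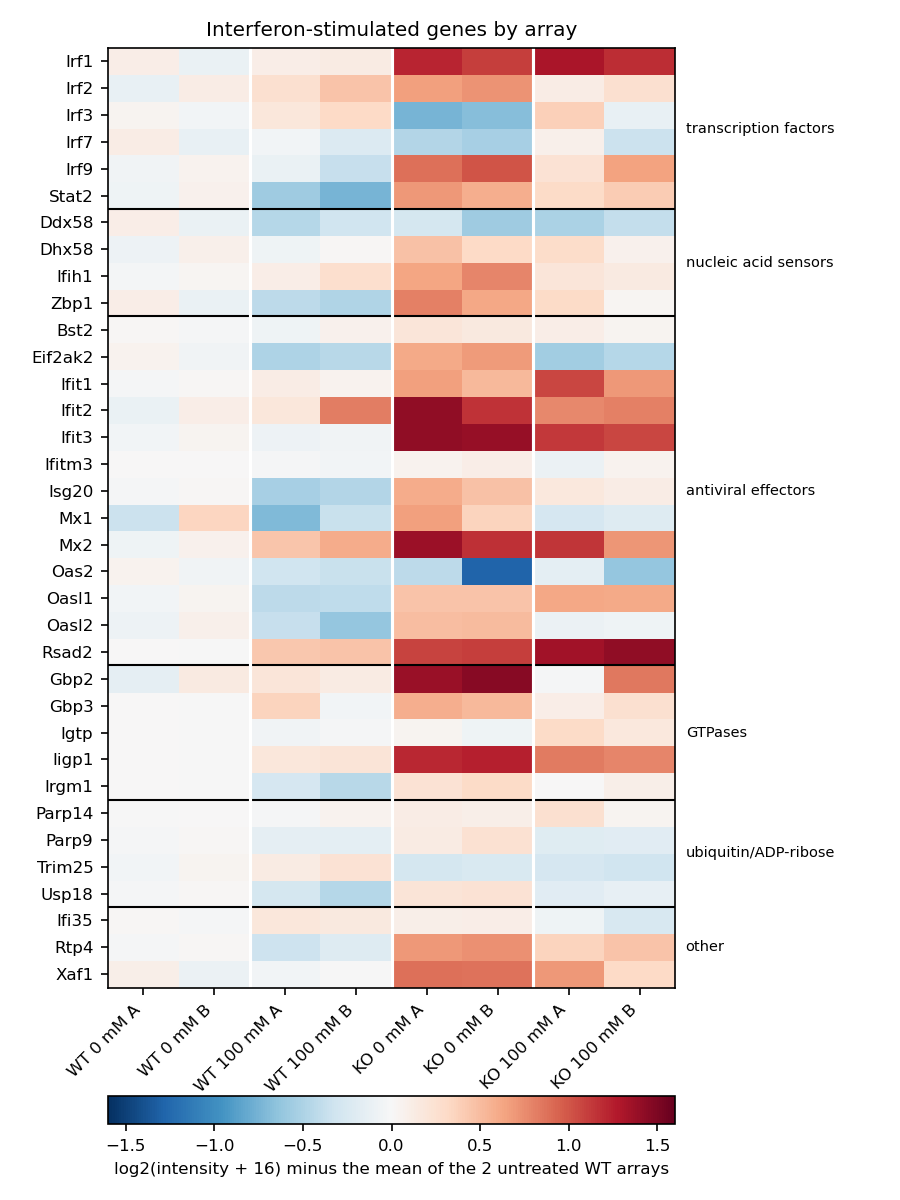
Colour shows log2(normalised intensity + 16) of each of the 35 members (lines, grouped by role) on each of the 8 arrays (columns), minus the mean of the 2 untreated WT arrays. Both untreated KO arrays are red for most members, while Irf3, Irf7, Ddx58, Oas2 and Trim25 are blue there.

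All 6 transcription factors changed with genotype in untreated cells, 4 upward and 2 downward. Irf1, the factor that carries much of the type II interferon response, lay at 489 and 417 in untreated WT, 1077 and 988 in untreated KO, 489 and 498 in WT with ethanol, and 1140 and 1042 in KO with ethanol. All 4 KO arrays lay above all 4 WT arrays, and the KO minus WT difference was 1.16 ± 0.11 (adjusted p = 6.0e-05) untreated and 1.12 ± 0.11 (adjusted p = 7.8e-05) with ethanol. Irf9, a DNA-binding part of the complex that acts on the ISRE, was measured at 333 and 358 in untreated WT, 651 and 711 in untreated KO, 320 and 264 in WT with ethanol, and 406 and 548 in KO with ethanol. KO arrays were again above all WT arrays, by 0.95 ± 0.15 (adjusted p = 0.0015) untreated and by 0.67 ± 0.15 (adjusted p = 0.010) with ethanol, but the ethanol KO arrays differed from each other and the second difference was not called without ethanol WT B (adjusted p = 0.087).

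Stat2, a transcription factor of type I interferon signalling, lay at 173 and 191 in untreated WT, 304 and 280 in untreated KO, 117 and 102 in WT with ethanol, and 228 and 245 in KO with ethanol. It rose in KO cells by 0.64 ± 0.15 untreated and by 1.01 ± 0.15 with ethanol, while its dimmer second probe set was not called in either comparison (0.31 ± 0.20 and 0.32 ± 0.20). Irf2, which competes with IRF1 for the same DNA sites, was at 172 and 204 in untreated WT, 305 and 319 in untreated KO, 226 and 264 in WT with ethanol, and 206 and 227 in KO with ethanol. Its KO arrays stood above the WT arrays only without ethanol, with differences of 0.69 ± 0.15 untreated (called) and -0.17 ± 0.15 with ethanol (not called).

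Irf3 and Irf7, the factors that switch on interferon genes after pathogen sensing, went the other way. Irf3 was at 1029 and 960 in untreated WT, 588 and 614 in untreated KO, 1133 and 1240 in WT with ethanol, and 1304 and 912 in KO with ethanol. The untreated KO arrays were the lowest of the 8, giving a fall of 0.71 (difference -0.71 ± 0.15, adjusted p = 0.0049), and its other probe sets gave -0.83 ± 0.15, which was called, and -0.45 ± 0.28, which was not. Irf7 was at 1922 and 1633, 1277 and 1219, 1711 and 1523, and 1871 and 1393 in that order of groups. It was lowest in untreated KO (-0.50 ± 0.14, adjusted p = 0.020), and with ethanol the difference was 0.00 ± 0.14.

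**Figure D2:**
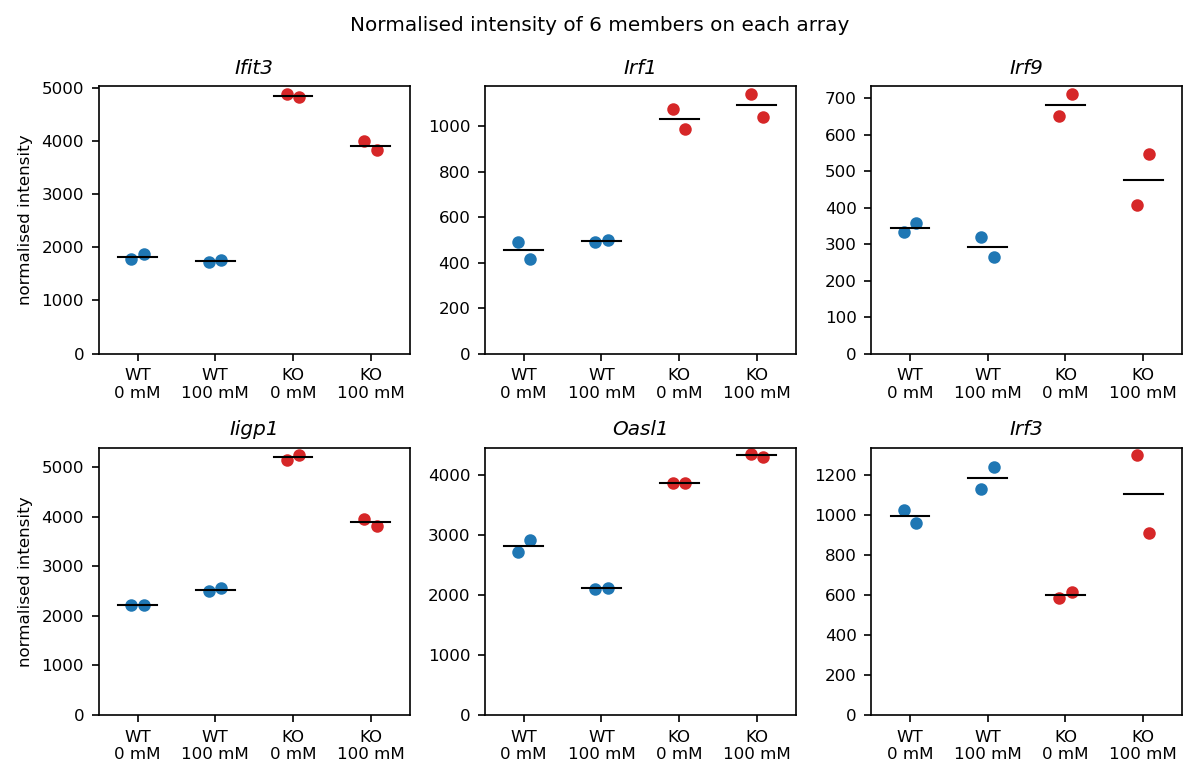
Points are the normalised intensities (vertical axis, from 0) of 6 members on each array, blue for WT and red for KO, and black lines are the means of the 2 arrays of a group. Ifit3, Irf1, Irf9, Iigp1 and Oasl1 are higher on every KO array than on every WT array, while Irf3 is lowest on the 2 untreated KO arrays.

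Of the 4 sensors, 3 rose in untreated KO cells and 1 fell. Ifih1, which encodes MDA5, the sensor of long double-stranded RNA, was at 874 and 911 in untreated WT, 1387 and 1548 in untreated KO, 961 and 1081 in WT with ethanol, and 1026 and 985 in KO with ethanol. The 2 untreated KO arrays stood alone above the rest, with a difference of 0.71 ± 0.09 (adjusted p = 0.00048) untreated and -0.02 ± 0.09 with ethanol. Zbp1, a sensor of left-handed nucleic acid, was at 514 and 441, 845 and 741, 354 and 335, and 591 and 485. It rose in KO by 0.71 ± 0.13 untreated and 0.61 ± 0.13 with ethanol, its second probe set by 0.86 ± 0.13 untreated but not with ethanol (0.21 ± 0.13). Ddx58, which encodes RIG-I, the sensor of short RNA with a 5′ triphosphate, fell by 0.42 in untreated KO (1078 and 926 against 823 and 667, SE 0.12), and its call ended without untreated KO B or without untreated WT A.

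Dhx58, the third RIG-I-like gene, rose by 0.39 ± 0.11 on its brightest probe set, from 578 and 647 in untreated WT to 854 and 766 in untreated KO. Another Dhx58 probe set, with 153 and 157 in untreated WT, 234 and 242 in untreated KO, 41.2 and 53.4 in WT with ethanol, and 287 and 228 in KO with ethanol, moved far more with ethanol. There the WT arrays dropped and the KO arrays did not, so that the KO minus WT difference was 0.58 ± 0.18 untreated and 2.11 ± 0.18 with ethanol (adjusted p = 3.7e-05). The brightest probe set was not called with ethanol (0.20 ± 0.11). The third and dimmest had the opposite sign and was not called, at -0.32 ± 0.32 untreated and -0.49 ± 0.32 with ethanol.

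Of the 13 antiviral effectors, 9 rose in untreated KO and none fell. The IFIT proteins bind viral RNA that lacks host cap marks. Ifit3 was at 1773 and 1875 in untreated WT, 4881 and 4831 in untreated KO, 1724 and 1754 in WT with ethanol, and 4002 and 3827 in KO with ethanol. The groups were far apart for its small replicate spread, with differences of 1.41 ± 0.07 (adjusted p = 1.2e-06) untreated and 1.16 ± 0.07 (adjusted p = 3.9e-06) with ethanol. Ifit1 rose less, from 934 and 953 to 1493 and 1362 untreated (0.59 ± 0.12) and from 1025 and 978 to 1989 and 1537 with ethanol (0.79 ± 0.12). Ifit2 was dim, at 29.7 and 36.5 in untreated WT, 116 and 93.2 in untreated KO, 39.4 and 70.2 in WT with ethanol, and 67.8 and 69.4 in KO with ethanol. It rose untreated (1.29 ± 0.27, not called without untreated KO A, adjusted p = 0.055), and its ethanol groups overlapped (0.29 ± 0.27).

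Rsad2, which encodes viperin, an enzyme that makes a chain-terminating nucleotide, was at 3536 and 3531 in untreated WT, 7488 and 7613 in untreated KO, 4781 and 4837 in WT with ethanol, and 8999 and 9470 in KO with ethanol. KO arrays were higher throughout, by 1.09 ± 0.06 (adjusted p = 2.9e-06) untreated and by 0.94 ± 0.06 (adjusted p = 6.7e-06) with ethanol. Its 2 dimmer probe sets gave larger differences, 2.68 ± 0.08 and 2.35 ± 0.07 untreated and 2.57 ± 0.08 and 1.30 ± 0.07 with ethanol. The first of these read 720 and 674 in untreated WT and 4467 and 4621 in untreated KO. Cmpk2, the neighbouring gene, which encodes a mitochondrial nucleotide kinase, was also higher in KO, at 379 and 325 in untreated WT against 969 and 919 in untreated KO (1.39, adjusted p = 6.2e-05).

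The 2′,5′-oligoadenylate synthetase family did not move as 1 block. Oasl1, a member without synthetase activity that in mouse restrains Irf7 translation, was at 2719 and 2912 in untreated WT, 3863 and 3870 in untreated KO, 2099 and 2124 in WT with ethanol, and 4347 and 4308 in KO with ethanol. Its KO minus WT difference was 0.46 ± 0.07 untreated and 1.03 ± 0.07 with ethanol, both called. Oasl2 rose by 0.50 ± 0.12 untreated and by 0.42 ± 0.12 with ethanol, and both calls ended on leaving out single arrays (adjusted p then up to 0.10 and 0.21). Oas2 was dim, at 72.0 and 64.8 in untreated WT and at 47.0 and 18.7 in untreated KO, and was not called (-0.85 ± 0.33).

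The other effectors were mixed. Mx2, one of the dynamin-like Mx proteins that trap viral components, was at 49.4 and 55.9 in untreated WT, 162 and 138 in untreated KO, 77.2 and 87.4 in WT with ethanol, and 136 and 95.5 in KO with ethanol. It rose untreated (1.27 ± 0.22, adjusted p = 0.0020) and was not called with ethanol (0.41 ± 0.22). Mx1 was near the filter on every array, from 11.5 to 54.4, and was not called. Eif2ak2, which encodes the kinase PKR that stops translation on double-stranded RNA, was at 462 and 429 in untreated WT, 688 and 726 in untreated KO, 311 and 324 in WT with ethanol, and 297 and 321 in KO with ethanol. The untreated KO arrays were highest (0.65 ± 0.11, adjusted p = 0.0015), while with ethanol WT and KO arrays overlapped (-0.04 ± 0.11). One of its 2 dimmer probe sets gave 1.03 ± 0.20 with ethanol, which was called, and the other 0.59 ± 0.23, which was not. Isg20, an exonuclease of single-stranded RNA, was at 430 and 442 in untreated WT, 668 and 609 in untreated KO, 298 and 312 in WT with ethanol, and 491 and 475 in KO with ethanol. All 4 KO arrays lay above all 4 WT arrays, and it rose by 0.53 ± 0.10 untreated and 0.64 ± 0.10 with ethanol. Bst2 (tetherin, which holds budding virus at the membrane) and Ifitm3 (which blocks viral fusion) were bright on every array, at 2524 to 3028 and at 11048 to 12662, and were not called in any comparison.

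Among the 5 GTPases, 4 rose in untreated KO. Iigp1, an immunity-related GTPase that attacks pathogen vacuoles in mouse, was at 2219 and 2214 in untreated WT, 5157 and 5249 in untreated KO, 2508 and 2560 in WT with ethanol, and 3962 and 3816 in KO with ethanol. The KO arrays were above all WT arrays, by 1.23 ± 0.06 (adjusted p = 2.0e-06) untreated and by 0.61 ± 0.06 (adjusted p = 0.00012) with ethanol, and its second probe set gave 1.08 ± 0.09 and 0.52 ± 0.09. Gbp2, a guanylate-binding protein of the same defence, was at 418 and 516, 1234 and 1297, 533 and 512, and 459 and 844, with untreated KO well apart (1.42 ± 0.23, adjusted p = 0.0013) and the ethanol groups overlapping (0.25 ± 0.23). Its second probe set had closer replicates and was called in both comparisons, at 1.45 ± 0.10 and 0.66 ± 0.10. Gbp3 rose by 0.55 ± 0.13 untreated, a call that ended when any 1 of the 4 untreated arrays was left out, and differed by 0.02 ± 0.13 with ethanol. Irgm1, a regulator of the effector GTPases, rose by 0.27 ± 0.08 and 0.41 ± 0.08, and Igtp was called only with ethanol (0.27 ± 0.08), where leaving out any 1 of 3 arrays ended the call. Guanylate-binding proteins, IFITs and immunity-related GTPases have close paralogues, and how far each probe set separates them was not tested.

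The 4 modifiers had the smallest median genotype differences of the 6 roles, at 0.15 untreated and 0.051 with ethanol. Usp18, which removes ISG15 from proteins and dampens receptor signalling, was at 1933 and 1977 in untreated WT and 2256 and 2290 in untreated KO, a difference of 0.22 ± 0.08 that was not called. Parp9 and Parp14, ADP-ribosyltransferase family members, were not called by genotype either. Trim25, a ubiquitin ligase that activates RIG-I, fell by 0.27 untreated and by 0.47 with ethanol on its brightest probe set (SE 0.07 for each), while its other 2 probe sets gave 0.03 ± 0.13 and 0.30 ± 0.18 untreated, neither called. Its untreated call ended when any 1 of the 4 untreated arrays was left out.

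Of the remaining 3 members, Rtp4, a chaperone of membrane receptors, rose from 1540 and 1578 in untreated WT to 2522 and 2588 in untreated KO (0.71 ± 0.08, adjusted p = 0.00017), and from 1232 and 1354 in ethanol WT to 2007 and 2153 in ethanol KO (0.68 ± 0.08). The dimmer probe set of Rtp4 was not called in either comparison, at 0.68 untreated and 0.047 with ethanol. Averaging its probe sets ended the call with ethanol. Xaf1, a pro-apoptotic protein, rose from 1008 and 876 to 1743 and 1737 untreated (0.88 ± 0.12) and by 0.53 ± 0.12 with ethanol. Its dimmer second probe set was not called (-0.44 ± 0.37 untreated), and both Xaf1 calls ended when its probe sets were averaged. Ifi35, which pairs with NMI, was not called untreated and fell by 0.34 with ethanol (SE 0.07), a call that ended without ethanol WT A (adjusted p = 0.054). Its dimmer probe set was not called and gave 0.085 ± 0.12 with ethanol.

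In untreated cells the count of 26 called members became 17 without untreated WT A, 28 with both B ethanol arrays left out, and 17 with these counted as untreated. Of the 26 calls, 16 held whichever array was left out and 10 did not: Ddx58, Dhx58, Gbp3, Ifit2, Irf2, Irf7, Irgm1, Oasl2, Stat2 and Trim25, whose adjusted p then reached 0.052 to 0.21. The share of all tested genes called moved in the same way as the members' count. It was smaller without untreated WT A, larger with both B ethanol arrays left out, and smaller with these counted as untreated. Both untreated KO arrays were dim, so genotype and array brightness cannot be told apart in this comparison.

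With ethanol the genotype difference covered fewer members. Of the 35, 15 rose in KO (42.9%) and 2 fell (5.71%), where 12.4% of all genes rose and 17.5% fell, and the median difference was 0.27 against -0.078 over all genes. The members that rose in both genotype comparisons were 14: Ifit1, Ifit3, Iigp1, Irf1, Irf9, Irgm1, Isg20, Oasl1, Oasl2, Rsad2, Rtp4, Stat2, Xaf1 and Zbp1. Another 8 members rose untreated and were not called with ethanol: Dhx58, Eif2ak2, Gbp2, Gbp3, Ifih1, Ifit2, Irf2 and Mx2. Only Igtp was called higher with ethanol alone, Trim25 fell in both, and no member was called in opposite directions. How many of all tested genes were called in both comparisons, or in a single comparison, was not counted. The genotype comparisons share no arrays but take their SE from the same fit, so their calls are not independent. Called rises of at least 2-fold with ethanol were found for 4 members: Ifit3, Irf1, Oasl1 and Stat2. The number of all tested genes that rose this far was again not counted.

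**Figure D3:**
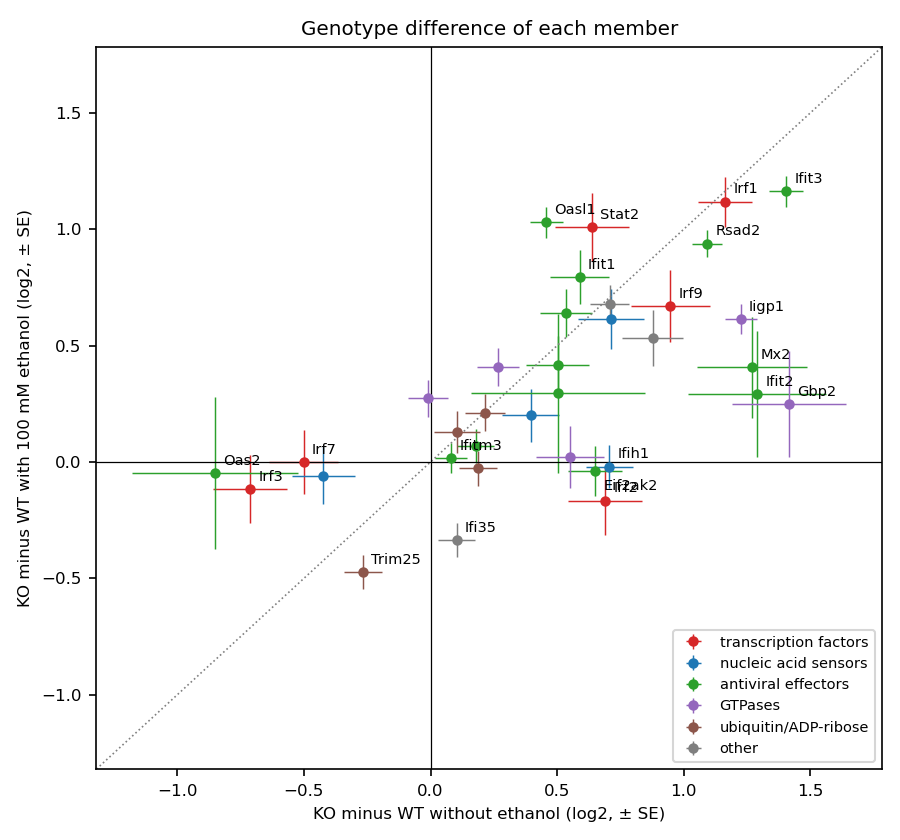
Each point is 1 of the 35 members, with its KO minus WT log2 difference without ethanol (horizontal) and with 100 mM ethanol (vertical), bars showing the SE and colours the role. Most points lie right of 0. Gbp2, Ifit2, Mx2, Iigp1, Ifih1, Irf2 and Eif2ak2 lie below the dotted line of equal differences, and Oasl1 and Stat2 lie above it.

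The count of 17 called members with ethanol became 11 without ethanol WT B, 15 with both B ethanol arrays left out, and 4 with these counted as untreated. It was 16, with 13 higher and 3 lower, when the 3 dim KO arrays were left out, so that ethanol KO was represented by 1 array. On the 2 arrays of this comparison with the low spike-in ratio the median member difference was 0.28, which allows no test, and in a fit to the 5 arrays with the high ratio it was 0.18. Of the 17 calls, 10 held whichever array was left out, and Ifi35, Igtp, Irf9, Irgm1, Oasl2, Xaf1 and Zbp1 did not (adjusted p then 0.050 to 0.21).

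In WT cells most of the called ethanol changes of these genes were falls. Of the 35 members, 1 rose (2.86%) and 7 fell (20%), where 2.30% of all genes rose and 2.51% fell, and the median was -0.033 against 0.048 over all genes. Rsad2 rose by 0.44 ± 0.06 (adjusted p = 0.0033), from 3536 and 3531 to 4781 and 4837, and this was the only call that held whichever array was left out. Of its other probe sets, 1 rose by 0.54 ± 0.07 and 1 was not called (-0.20 ± 0.08). The members that fell were Stat2 (-0.66 ± 0.15), Isg20 (-0.50 ± 0.10), Oasl2 (-0.50 ± 0.12), Eif2ak2 (-0.47 ± 0.11), Oasl1 (-0.41 ± 0.07), Usp18 (-0.37 ± 0.08) and Irgm1 (-0.36 ± 0.08). The dimmer probe set of Stat2 gave 0.02 and was not called. For Eif2ak2 1 dimmer probe set fell (-1.02) and another was not called (0.05). Averaging a gene's probe sets ended the calls of Stat2 and Eif2ak2. Both the members' count and the share of all tested genes called depended on the arrays used. The count of 8 became 1 or 2 when any 1 of the 4 WT arrays was left out, 2 without either untreated KO array, 12 without either ethanol KO array, 4 with both B ethanol arrays left out, and 0 with these counted as untreated.

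In KO cells more members fell with ethanol. Here 2 rose (5.71%) and 14 fell (40%), where 14.1% of all genes rose and 10.0% fell, and the median was -0.30 against 0.039 over all genes. Eif2ak2 fell most (-1.15 ± 0.11, adjusted p = 0.00036), from 688 and 726 to 297 and 321, so that its ethanol KO and ethanol WT arrays overlapped. Gbp2 fell to 0.499 of its untreated level (log2 SE 0.23, adjusted p = 0.013), with 459 and 844 on the ethanol KO arrays, and its second probe set by 0.93 (SE 0.10). The other 12 members that fell were Oasl2 (-0.58 ± 0.12), Zbp1 (-0.55 ± 0.13), Ifih1 (-0.54 ± 0.09), Irf9 (-0.51 ± 0.15), Irf2 (-0.50 ± 0.15), Iigp1 (-0.42 ± 0.06), Isg20 (-0.39 ± 0.10), Usp18 (-0.37 ± 0.08), Parp9 (-0.37 ± 0.08), Ifit3 (-0.31 ± 0.07), Rtp4 (-0.30 ± 0.08) and Ifi35 (-0.27 ± 0.07). The dimmer probe sets of Ifi35 (0.33) and Rtp4 (-0.47) were not called.

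The 2 members that rose with ethanol in KO were Irf3 and Rsad2. Irf3 rose by 0.84 ± 0.15 (adjusted p = 0.0042), from 588 and 614 to 1304 and 912, and its second probe set by 0.81 ± 0.15. Rsad2 rose by 0.29 ± 0.06 on its brightest probe set, but its other 2 probe sets fell (-0.31 ± 0.08 and -0.51 ± 0.07), and with trimmed-mean scaling in place of quantile normalisation the brightest probe set gave -0.057, so its direction depends on the probe set and the scaling. The untreated KO arrays enter both this comparison and the genotype comparison without ethanol, so the values of these 2 comparisons are not independent.

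**Figure D4:**
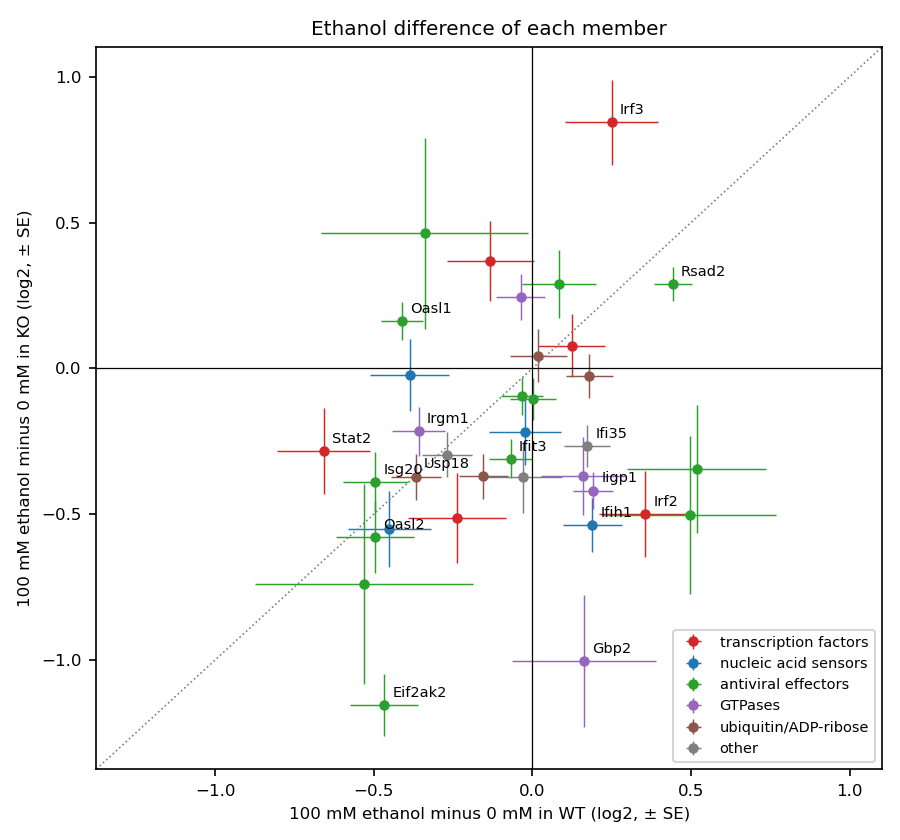
Each point is 1 of the 35 members, with its ethanol minus untreated log2 difference in WT (horizontal) and in KO (vertical), bars showing the SE and colours the role. Eif2ak2 and Gbp2 lie lowest on the KO axis, Irf3 highest, and Oasl1 lies to the left of 0 and above it.

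The count of 16 in KO cells became 5 without untreated KO A and 3 without untreated KO B, 22 with both B ethanol arrays left out, and 1 with these counted as untreated. Only the calls of Eif2ak2, Iigp1 and Irf3 held whichever array was left out, and for the other 13 the adjusted p reached 0.050 to 0.21. The trimmed mean of the 2 ethanol KO arrays was 103 and 297, so array brightness also moved within this comparison, and its part was not tested.

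The ethanol difference itself differed between genotypes for 6 members. The test of KO effect minus WT effect was positive for 1 (2.86%) and negative for 5 (14.3%), where 3.21% of all genes were called positive and 1.81% negative, and the median was -0.11 against -0.0041. Oasl1 was the positive one (0.57 ± 0.09, adjusted p = 0.010), with a called fall in WT and no call in KO. The negative ones were Irf2 (-0.86 ± 0.21, adjusted p = 0.045), Ifih1 (-0.73 ± 0.13, adjusted p = 0.016), Eif2ak2 (-0.69 ± 0.15, adjusted p = 0.032), Iigp1 (-0.61 ± 0.09, adjusted p = 0.0071) and Ifi35 (-0.44 ± 0.10, adjusted p = 0.041). The same test compares the genotype difference with ethanol and without it. Of the 8 members that rose in KO without ethanol only, Eif2ak2, Ifih1 and Irf2 passed it, and for Dhx58, Gbp2, Gbp3, Ifit2 and Mx2 a difference between the 2 genotype comparisons was not shown on the brightest probe set. Dimmer probe sets of Gbp2 (-0.79 ± 0.14) and Dhx58 (1.53 ± 0.25) did pass it, in opposite directions. With other sets of arrays the members' count and the share of all tested genes called both moved. The count became 0 without either untreated KO array, 1 or 2 when any 1 of the WT arrays was left out, 7 and 11 without ethanol KO A and B, 10 with both B ethanol arrays left out, and 0 with these counted as untreated. No call held whichever array was left out (adjusted p then 0.052 to 0.17).

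For 12 members more than 1 probe set was tested, and these agreed in direction only in part. The second probe sets of Gbp2, Iigp1, Zbp1 and Eif2ak2 and both dimmer ones of Rsad2 were called higher in untreated KO as the brightest was. The dimmer probe sets of Stat2 and Rtp4 had the same sign and were not called, and those of Xaf1 and Ifi35 had the opposite sign and were not called. The interaction was called on a dimmer probe set of Rsad2 (-1.06 ± 0.10) and Iigp1 (-0.56 ± 0.12) as well as those of Gbp2 and Dhx58, but on neither dimmer probe set of Eif2ak2 (-0.29 ± 0.32 and 0.12 ± 0.29) and not on that of Ifi35 (0.32 ± 0.17).

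**Figure D5:**
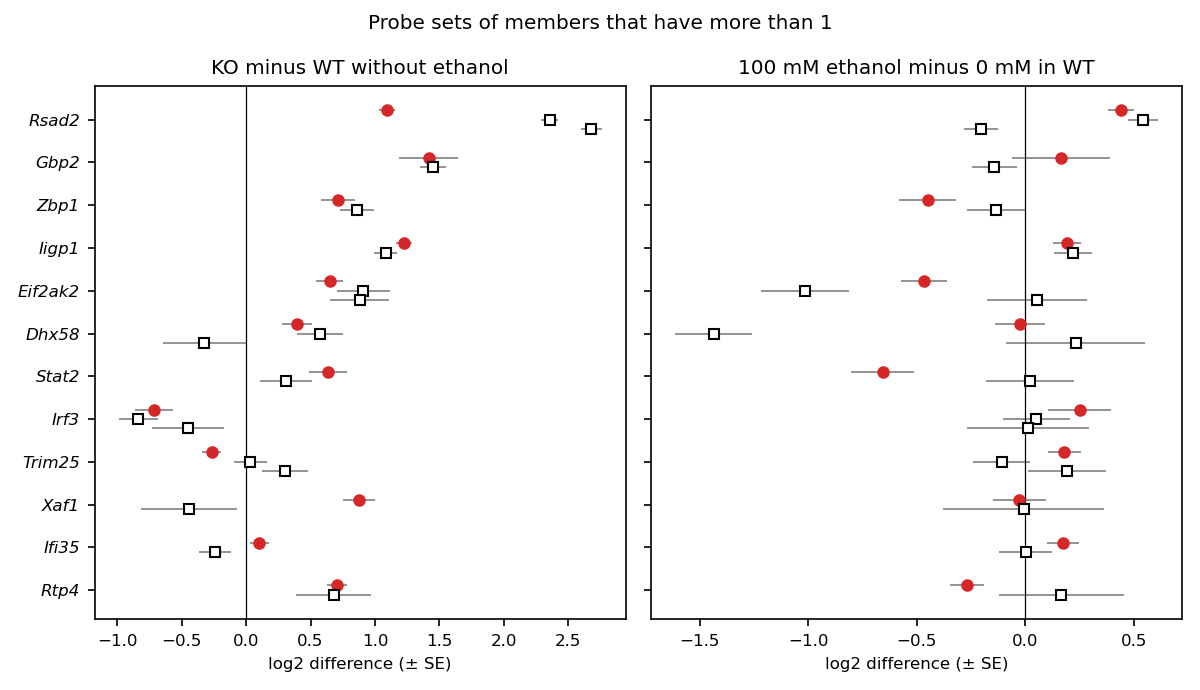
Log2 differences (horizontal, ± SE) of every tested probe set of the 12 members that have more than 1, for KO minus WT without ethanol (left) and for ethanol in WT (right), filled red circles being the brightest probe set and open squares the others. Rsad2 runs from 1.09 to 2.68 on the left, and Dhx58 holds a probe set at -1.44 on the right whose partners lie near 0.

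The genes upstream of this response were measured as well, from lists of pathway genes that are not members. Of 11 interferon and receptor genes with a probe set, Ifna1, Ifna4, Ifna5, Ifnb1 and Ifng were below the filter, with group means of 1.14 to 34.1, so changes in these 5 were not tested. Ifna2 passed the filter, with group means of up to 65.0, and was not called in any comparison. Ifngr2, a chain of the type II interferon receptor, was at 193 and 251 in untreated WT, 379 and 427 in untreated KO, 131 and 153 in WT with ethanol, and 533 and 488 in KO with ethanol, and rose in KO by 0.82 untreated and 1.74 with ethanol (adjusted p = 5.1e-05). Ifnar2, a chain of the type I receptor, fell by 0.44 in untreated KO, and Ifnar1, the other chain, was called only with ethanol (0.45). Of the 6 tested genes of this list, 1 rose and 1 fell untreated and 3 rose with ethanol. As a measure for this list and those that follow, 15.1% of all tested genes rose and 21.0% fell in KO untreated. With ethanol 12.4% of all tested genes rose in KO and 17.5% fell.

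Of 10 tested genes of receptor signalling, 4 rose and 1 fell untreated, and 4 rose and 1 fell with ethanol, not all of them the same genes, since Jak2 was called untreated (0.74) and not with ethanol (-0.15), and Pias1 was called with ethanol (0.47) and not untreated (0.27). These 2 differences between the comparisons did not pass the interaction test. Socs3, a feedback inhibitor of JAK kinases, was at 103 and 130, 385 and 364, 175 and 168, and 305 and 345 in the usual order of groups, with differences of 1.57 untreated and 0.86 with ethanol. Jak1, a kinase shared by both receptor types, rose by 0.42 and 0.54. Of 10 tested genes that lead from pathogen sensing to interferon production, 4 rose untreated and 3 with ethanol, and none fell. Ikbke, a kinase that activates IRF3 and IRF7, was at 575 and 648, 1745 and 1843, 761 and 872, and 1216 and 1299, and its differences were 1.53 and 0.62. Tank, an adaptor of that kinase, rose by 1.30 and 0.99.

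A further list held 40 tested interferon-inducible genes outside the 37. Without ethanol 17 of them rose and 4 fell, with a median of 0.30, and with ethanol 13 rose and 3 fell, with a median of 0.15. Over all tested genes 15.1% rose and 21.0% fell untreated, and 12.4% rose and 17.5% fell with ethanol. Trim30a, a ubiquitin ligase found in mouse, was at 521 and 505, 1366 and 1503, 490 and 424, and 1111 and 1035 (1.45 and 1.21). Gbp7 rose by 1.13 and 0.38, Ifi30, a lysosomal thiol reductase, by 0.79 and 0.94, and Psmb10, an immunoproteasome subunit, fell by 0.60 and 0.71. In KO cells ethanol lowered 11 of the 40 and raised 3, where 10.0% of all genes fell and 14.1% rose, and in WT cells it lowered 3 and raised none, where 2.51% fell and 2.30% rose.

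Some markers of other cell types were called between the groups too. Of all tested genes, 15.1% rose and 21.0% fell in KO untreated, and 12.4% rose and 17.5% fell with ethanol. Of 10 tested macrophage markers, Cd68 rose in untreated KO (411 and 450 against 1255 and 1236) and Csf1r, Marco and Lyz2 fell. The summed intensity of the macrophage list was 5064 to 5396 in untreated WT, 6948 to 7145 in ethanol WT, 6083 to 6144 in untreated KO and 8252 to 8877 in ethanol KO. Its mean log2 level was 7.24 and 7.36 in untreated WT and 7.27 and 7.17 in untreated KO. With ethanol that level was 7.39 and 7.36 in WT and 7.60 and 7.48 in KO. The cholangiocyte list summed to 433 to 460 in untreated WT, 312 to 355 in ethanol WT, 1022 to 1118 in untreated KO and 768 to 900 in ethanol KO. Its mean log2 level was 6.38 and 6.34 in untreated WT and 6.38 and 6.32 in untreated KO. With ethanol that level was higher on both KO arrays than on both WT arrays. The list's called gene was Sox9, a transcription factor of bile duct cells, which was higher in KO by 1.66 untreated and 1.45 with ethanol. Epcam was not called and differed by -0.87 untreated and 0.89 with ethanol, and Krt7 and Krt19 were below the filter. Of 8 tested endothelial markers, 1 rose in each genotype comparison, Cdh5 untreated (0.97) and Pecam1 with ethanol (0.77), and the list summed to 485 to 561 in untreated WT, 635 to 636 in ethanol WT, 668 to 794 in untreated KO and 641 to 665 in ethanol KO. Over all 8 arrays the neutrophil list summed to 128 to 210 and the stellate list to 194 to 508. Of 10 measured lymphoid markers, 1 passed the filter, and of 6 dendritic cell markers, 2 did. The 10 hepatocyte markers summed to 106997 to 109072 in untreated WT and 97855 to 98116 in untreated KO. There 6 of them fell and 1 rose, with a median difference of -0.28. The largest fall was that of Hnf4a, a transcription factor of hepatocyte identity (-1.36). With ethanol the list summed to 111091 to 111723 in WT and 96182 to 105544 in KO, where 4 fell and none rose. Ethanol raised 4 of the 10 in KO and 1 in WT and lowered none. Of all tested genes, ethanol raised 14.1% in KO and 2.30% in WT. The part of these cell types in the member differences was not tested, and in RNA from a whole culture a change in the number of cells of a type and in RNA per cell cannot be told apart.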

How the data were processed

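RNA of mouse primary hepatocytes was measured on 8 arrays in 4 groups taken from the sample titles. Per the labels' protocols, RNA was extracted on RNeasy columns and made into biotinylated cRNA by in vitro transcription. The authors deposited 1 linear signal intensity for each of 45101 probe sets (64 of them controls) on each array. How probes were summarised and scaled, and any genome build, is not stated in the labels or file headers. On ethanol WT B, 5410 intensities (12%) were unusable, and only the 39627 probe sets complete on all arrays were kept.

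Intensities were quantile normalised and transformed as log2(intensity + 16), which understates changes of dim genes. The brighter 50% of probe sets (19814, mean at least 5.4) were tested with limma 3.58.1 in R 4.3.3, with 1 fit over 4 group means, a variance trend, 4 residual and 5.43 prior degrees of freedom, and Benjamini-Hochberg adjustment within each of 5 contrasts. The fit was tested on simulated data. Only 8 arrays limit the precision.

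Symbols came from the platform annotation: 34958 probe sets had 1 symbol, 932 several and 9211 none. Each member was named on its brightest probe set, and other probe sets were given for some members. Array values were given for members changed by at least 1.5-fold between genotypes and for some others chosen after their values were seen. The members, gene lists, tests and alternatives were chosen with earlier results of these data known. The correlation of A minus B between groups was 0.022 to 0.30, not above 0.1 for every pair, so the letters were not taken as pairs. Alternatives changed the offset, filter, variance prior, arrays, scaling, labels of the B ethanol arrays, spike-in ratio class, replicate block and probe set choice. Promoters were RefSeq windows of GRCm38.p6.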

Additional observations from a re-analysis of the deposited data

Results flagged for a closer look

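For 6 members the effect of ethanol differed between WT and KO cells by the interaction test. Its value (KO effect minus WT effect, log2) was -0.611 for Iigp1, -0.726 for Ifih1, -0.687 for Eif2ak2, -0.855 for Irf2, -0.439 for Ifi35 and 0.573 for Oasl1. All 6 calls ended when both B ethanol arrays were treated as untreated samples, and with a variance prior without a trend.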

How the results depend on the processing

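Other settings changed the number of called members more than the direction of single members. They also changed the share of all tested genes that was called, so a changed count is not particular to the members. With each array left out in turn, the counts ranged from 17 to 29 for KO against WT untreated, 11 to 17 with ethanol, 1 to 12 for ethanol in WT, 3 to 20 for ethanol in KO and 0 to 11 for the interaction. Taking both B ethanol arrays as untreated samples, the counts were 17, 4, 0, 1 and 0 in that order. With these arrays left out, the interaction had 10 and ethanol in WT had 4. A variance prior without a trend gave 5 for ethanol in KO, 0 for ethanol in WT and 0 for the interaction. Without a filter ethanol in WT and the interaction had 3 each, and with unusable probe sets kept the interaction had 3. Ethanol in KO fitted on its own groups gave 10, and ethanol in WT on the 5 arrays with the high spike-in ratio gave 5. With the letter as a replicate block the counts were 27, 17, 8, 19 and 7. Averaging a gene's probe sets reversed Eif2ak2 in KO against WT with ethanol (0.53), Ifi35 and Rsad2 for ethanol in KO (0.030 and -0.18) and Trim25 untreated (0.023), and trimmed-mean scaling reversed Rsad2 for ethanol in KO (-0.057). The causes were not tested, except that averaging uses other probe sets. With unusable probe sets kept, the median of all genes moved from -0.078 to 0.025 for KO against WT with ethanol, from 0.048 to -0.059 for ethanol in WT and from -0.0041 to 0.10 for the interaction, and the members' medians became 0.35, -0.12 and -0.038. The low-ratio arrays alone gave values without a test. The dim members Ifit2, Mx1, Mx2 and Oas2 had genotype SEs of 0.22 to 0.34, and with 2 arrays a group a difference that was not called may still exist.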
